A study of Mus musculus with 25 samples.

Results

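The gonadotropins are the pituitary hormones that drive the ovary and the testis, and 3 genes encode their subunits in the mouse: Fshb, Lhb and Cga. These genes were taken by their symbols from a table of 47069 genes, and each symbol had 1 row. All 3 were among the 19141 genes with a mean log2 value of at least 3, which were tested. Their RNA was measured in whole pituitaries of 25 hpg/hpg mice, 1 library per mouse. Every mouse, treated or not, carries the hpg deletion, which removes part of the gonadotropin-releasing hormone (GnRH) gene, so the placebo groups are GnRH-deficient animals and not normal ones. For 10 days each mouse was given a daily intraperitoneal injection of 1 µg GnRH or of saline, which the labels call placebo, and tissue was taken 1 h after the final injection. Of the females, 5 received placebo and 6 GnRH. Of the males, 6 received placebo and 8 GnRH. Animals keep the numbers 1 to 25 of the labels. No group of normal mice, no single injection and no later time was analysed here, and no age or strain is stated in the labels. The design text speaks of fewer GnRH males than the labels list, and the labels were followed. A p-value sets a difference between groups against the spread between these animals.

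Values were normalized by the submitters, so the sequencing depth behind each animal is unknown. The precision given here rests on the number of animals and the spread between them. The medians of the 25 libraries over the tested genes lay between 8.09 and 8.13, and correlations between libraries between 0.992 and 0.998.

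Follicle-stimulating hormone (FSH) and luteinizing hormone (LH) are each built from a common alpha subunit, encoded by Cga, and a beta subunit of their own, encoded by Fshb and Lhb. Both are made in gonadotropes, a minor cell type of the anterior pituitary, under the control of GnRH pulses from the hypothalamus, while activins and inhibin act mostly on Fshb. The same alpha subunit also pairs with the product of Tshb in thyrotropes to give thyroid-stimulating hormone, so Cga RNA in whole pituitary comes from gonadotropes and thyrotropes. In bulk RNA from whole tissue, a change in the number of cells of a type and a change in RNA per cell cannot be told apart.

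The 3 genes lie on different chromosomes of the mm10 build in the GENCODE annotation. Fshb is at chr2:107056140-107059656 on the minus strand, Lhb at chr7:45420820-45421897 on the plus strand and Cga at chr4:34893779-34907370 on the plus strand. The exons of all transcripts of a gene, merged, cover 1600 bases in Fshb, 678 in Lhb and 954 in Cga. Fshb shares no exonic base with another gene. Of the exonic bases of Lhb, 138 (20.4%) also belong to Ruvbl2, a chromatin remodelling helicase on the opposite strand, and 305 (32.0%) of those of Cga belong to the noncoding gene Platr9, also on the opposite strand. No source used here gives the strand setting of the counting, so reads from those bases cannot be assigned to one gene of the pair. Neither neighbour passed the test in any GnRH comparison, with averaged log2 differences of -0.05 for Ruvbl2 (adjusted p = 0.682) and 0.04 for Platr9 (adjusted p = 0.895).

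The 250 bases before the annotated start of each gene are shown because Fshb and the other subunit genes differed in the size of their response, and because factors with known roles at these promoters are among the genes described further on. The sequences are those of RefSeq on GRCm38.p6, each read 5′ to 3′ on the strand of its gene, at chr2:107059652-107059901 for Fshb, chr7:45420696-45420945 for Lhb and chr4:34893529-34893778 for Cga. Capitals mark matches to the 8 motifs listed after them.
Fshb: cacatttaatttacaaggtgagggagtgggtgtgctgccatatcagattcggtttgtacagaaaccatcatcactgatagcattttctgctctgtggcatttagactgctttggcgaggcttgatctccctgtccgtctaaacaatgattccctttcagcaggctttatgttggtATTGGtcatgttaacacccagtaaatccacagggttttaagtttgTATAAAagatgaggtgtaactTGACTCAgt
Lhb: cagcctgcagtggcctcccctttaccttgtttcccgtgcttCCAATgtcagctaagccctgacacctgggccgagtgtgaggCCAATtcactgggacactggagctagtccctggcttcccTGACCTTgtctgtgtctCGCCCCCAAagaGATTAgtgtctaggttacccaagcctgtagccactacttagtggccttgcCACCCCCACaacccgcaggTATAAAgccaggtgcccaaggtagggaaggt
Cga: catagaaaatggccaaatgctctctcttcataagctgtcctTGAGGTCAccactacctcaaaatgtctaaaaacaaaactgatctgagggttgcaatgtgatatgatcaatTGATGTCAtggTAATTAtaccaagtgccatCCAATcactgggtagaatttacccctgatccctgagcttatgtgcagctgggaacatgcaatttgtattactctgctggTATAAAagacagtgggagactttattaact
The motifs were searched on both strands, and no pair of matches overlapped. Of 32851 promoter windows in the RefSeq table, 4.08% held AAGGTCA (steroidogenic factor 1), 12.8% CNCCCCCAN (EGR factors), 19.8% TAATC (PITX factors) and 7.49% TGANGTCA (cAMP response element). TGANTCA (AP-1) was in 6.75%, TAATTA (LIM homeodomain factors) in 4.84%, CCAAT in 33.9% and TATAAA, the letters of a TATA box, in 12.4%.

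Counted back from the annotated start, the Fshb window held an AP-1 match, TGACTCA, at -9 to -3, a TATA box at -30 to -25 and a CCAAT match on the other strand at -75 to -71. The Lhb window held the AAGGTCA motif on the other strand at -129 to -123, EGR matches at -112 to -104 and -50 to -42, a PITX match at -100 to -96 and a TATA box at -31 to -26, with CCAAT further upstream. In the Cga window lay cAMP response element matches at -209 to -202 and -139 to -132, TAATTA at -128 to -123, CCAAT at -109 to -105 and a TATA box at -30 to -25. A match is a description of the letters, not a shown binding site. The GENCODE models of Fshb and Lhb begin inside these windows.

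Fshb, the beta subunit of FSH and the gene named in the title of the series, was higher in every GnRH animal than in any placebo animal of its sex. All values are regularized log2 values, on which 1 unit is a doubling. Placebo females 1 to 5 had Fshb values of 10.65, 9.80, 9.49, 9.25 and 9.65. GnRH females ranged from 11.13 to 12.41 with a median of 11.92. The lowest GnRH female (animal 10) lay 0.47 above the highest placebo female (animal 1), so the groups did not overlap. Placebo males ranged from 9.05 to 9.94 (median 9.31) and GnRH males from 11.30 to 12.86 (median 12.17), with 1.35 between the nearest animals of the groups. Among all genes tested, the GnRH animals lay above every placebo animal for 0.528% in females and 0.345% in males.

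Groups were compared with limma, a linear model fitted to all genes, with Benjamini-Hochberg adjustment and a threshold of 0.05. In females, the mean of Fshb was 9.77 ± 0.53 (SD, n = 5) with placebo and 11.84 ± 0.56 (SD, n = 6) with GnRH, a 4.20-fold rise (limma, log2 difference 2.07, SE 0.27, adjusted p = 0.000347). In males, it was 9.37 ± 0.33 (SD, n = 6) and 12.14 ± 0.56 (SD, n = 8), a 6.81-fold rise (2.77, SE 0.24, adjusted p = 1.52e-07). By p-value Fshb ranked 2 of all genes in females and 1 in males. For Fshb taken alone, an exact permutation test (two-sided) returned the lowest p its design allows, 0.00216 in females and 0.000333 in males. Averaged over the sexes, Fshb rose by 2.42 (95% confidence interval 2.04 to 2.80, adjusted p = 4.55e-09), and no other gene had a larger upward difference. The share of genes that passed upward was 0.0993% in females, 0.449% in males and 1.42% for the average.

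Lhb, the beta subunit of LH, had a smaller difference. Placebo females 1 to 5 had 10.11, 10.80, 10.13, 10.78 and 10.49. GnRH females ran from 10.49 to 11.11 (median 10.96), and 5 of 6 lay above every placebo female. The exception was animal 9, at 10.49. Placebo males ran from 10.13 to 10.69 (median 10.51) and GnRH males from 10.50 to 11.11 (median 10.80), with 6 of 8 above every placebo male. The groups thus overlapped in both sexes, although each of the 14 GnRH animals lay above the placebo mean of its sex.

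The mean of Lhb was 10.46 ± 0.33 (SD, n = 5) and 10.91 ± 0.22 (SD, n = 6) in placebo and GnRH females, and 10.48 ± 0.20 (SD, n = 6) and 10.79 ± 0.19 (SD, n = 8) in males. Across all genes neither sex passed on its own, with log2 differences of 0.45 in females (limma, adjusted p = 0.207) and 0.31 in males (adjusted p = 0.414). Exact permutation tests of Lhb alone gave p = 0.0346 in females and 0.00932 in males, not adjusted for the 12 such tests that were run. After adjustment over them, the male result was lost in 9 of 14 fits without 1 animal. With both sexes averaged, Lhb rose by 0.38 (SE 0.085, 95% confidence interval 0.21 to 0.56), a 1.30-fold difference that passed across all genes (limma, adjusted p = 0.0141). It also passed in each of the 25 fits without 1 animal, with adjusted p between 0.00302 and 0.0414. Beside Lhb, values of Ruvbl2, with which it shares exonic bases, varied in the same direction from animal to animal (r = 0.63 over 25 deviations from group means, a description), while the mean of Ruvbl2 differed by -0.03 in females and -0.08 in males.

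Cga, the alpha subunit of both hormones, was among the most abundant RNAs of the tissue in all groups. Placebo females 1 to 5 had 14.48, 14.13, 14.41, 14.39 and 14.85, and GnRH females ran from 14.67 to 15.42 (median 14.82). Placebo males ran from 14.09 to 15.25 (median 14.58) and GnRH males from 14.50 to 15.32 (median 14.92). In females 3 of 6, and in males 2 of 8, GnRH animals lay above every placebo animal, so the groups overlapped in both sexes. Of the 14 GnRH animals, 6 of 6 females and 7 of 8 males lay above their placebo mean.

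The mean of Cga was 14.45 ± 0.26 (SD, n = 5) and 14.94 ± 0.30 (SD, n = 6) in females, and 14.59 ± 0.40 (SD, n = 6) and 14.92 ± 0.30 (SD, n = 8) in males. The log2 differences, 0.49 in females (limma, adjusted p = 0.355) and 0.33 in males (adjusted p = 0.721), did not pass. Averaged over the sexes, Cga differed by 0.41 (95% confidence interval 0.17 to 0.65, 1.33-fold) and missed the threshold across all genes (adjusted p = 0.0707). It passed without placebo female 5 (adjusted p = 0.0434), placebo male 16 (0.0135) or GnRH male 19 (0.0390), and missed it in the other 22 fits without 1 animal. Tshb, described further on, was highest of its group in animals 5 and 16 and lowest in animal 19. Exact permutation tests of Cga alone gave p = 0.0195 in females and 0.0979 in males. With treatment labels permuted within each sex, a test added after the data were seen, the averaged difference had an exact p of 0.00376.

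**Figure D1:**
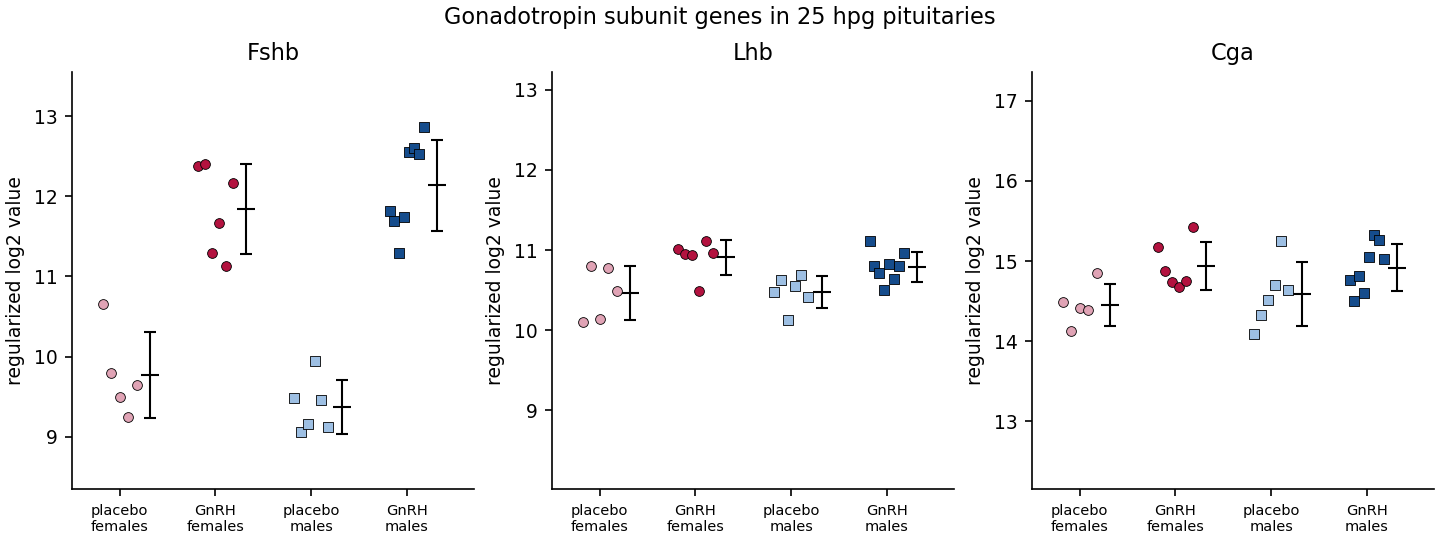
Regularized log2 values (vertical axes, all spanning the same number of units) of Fshb, Lhb and Cga in each of the 25 animals, by group (circles, females; squares, males; pale, placebo; dark, GnRH), with the group mean ± SD to the right of the points. The GnRH groups stand clear of the placebo groups for Fshb, at 11.13 and above against 10.65 and below, and overlap with them for Lhb and Cga.

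The sizes of the averaged differences set Fshb apart, at 2.42, from Lhb at 0.38 and Cga at 0.41, whose confidence intervals cover much the same range. The test of whether the GnRH effect differed between males and females passed for none of the 3 genes. Over all genes it passed for 0 of 19141 (0%), with 529 at an unadjusted p under 0.05. For Fshb the male effect was larger by 0.70 (95% confidence interval -0.05 to 1.45, limma, adjusted p = 0.999), a range that includes 0 and, at its upper end, a difference larger than the averaged effect on Lhb. For Lhb the male effect minus the female effect was -0.14 (-0.49 to 0.21), and for Cga it was -0.16 (-0.63 to 0.31). Exact permutation of the sex labels within treatments gave p = 0.0907 for Fshb, 0.479 for Lhb and 0.549 for Cga. This permutation assumes no sex difference in either treatment, which is more than equal GnRH effects in the sexes.

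**Figure D2:**
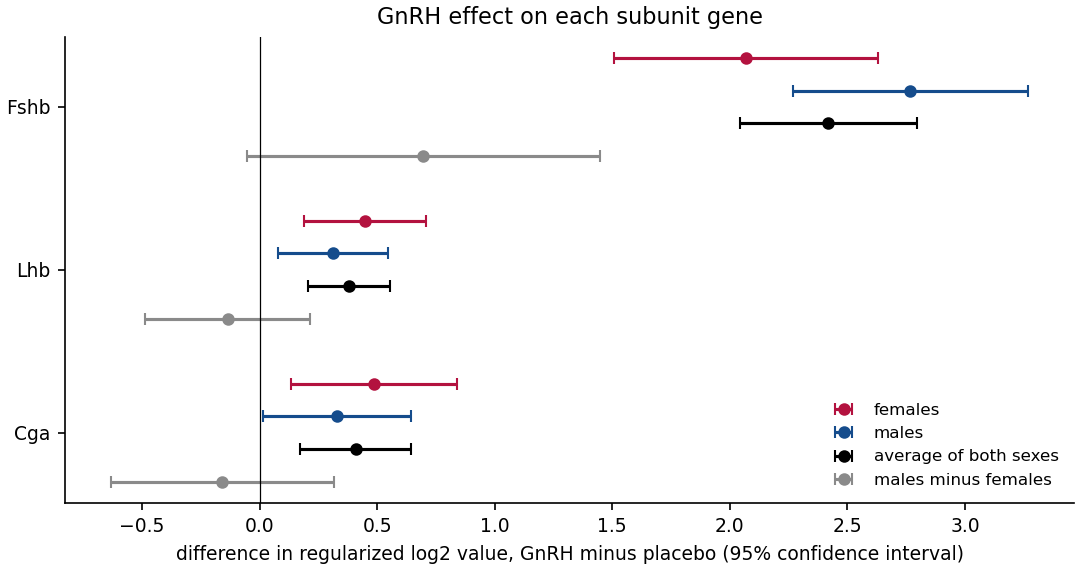
Differences in regularized log2 value between GnRH and placebo (horizontal axis) for each subunit gene in females, males and their average, and the male effect minus the female effect, with 95% confidence intervals from limma. The intervals of Fshb lie above 1.5 in each sex, those of Lhb and Cga between 0 and 1, and those of the sex difference include 0 for each gene.

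No subunit gene passed the test between males and females within a treatment. With placebo, males minus females came to -0.40 for Fshb, 0.02 for Lhb and 0.13 for Cga, and the adjusted p of each was 0.999 (limma, with 0.047% of genes passing in either direction). With GnRH the differences were 0.30 for Fshb (95% confidence interval -0.20 to 0.80), -0.12 for Lhb (-0.35 to 0.11) and -0.02 for Cga (-0.34 to 0.29). Their adjusted p-values were 0.935, 0.940 and 0.991, and 0.0522% of genes passed. The values of the sexes overlapped in each of these 6 comparisons. The interval for Fshb with GnRH still allows a male level up to 1.74 times the female level.

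Subtracting the log2 value of one subunit from that of another in the same animal cancels whatever scales both, such as a common library factor. In females Fshb minus Lhb was -0.69 ± 0.77 (SD, n = 5) with placebo and 0.93 ± 0.59 (SD, n = 6) with GnRH, which is 1.62 higher (exact permutation p = 0.0108, adjusted p = 0.0325 over the 12 tests of such differences). Placebo female 1, at 0.54, lay above 2 of the GnRH females, and the other 4 placebo females lay between -1.53 and -0.64. In males it was -1.11 ± 0.33 (SD, n = 6) with placebo and 1.34 ± 0.56 (SD, n = 8) with GnRH, which is 2.46 higher (exact permutation p = 0.000333, adjusted p = 0.002). The male groups did not overlap, with 1.19 between them. The female call is less firm, since leaving out 1 animal lost it in 8 of 11 fits (animals 2, 3, 4, 5, 6, 7, 9 and 11, adjusted p of up to 0.0714), with differences that stayed between 1.41 and 1.93.

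Fshb minus Cga moved in the same way, from -4.68 ± 0.59 (SD, n = 5) to -3.10 ± 0.43 (SD, n = 6) in females and from -5.22 ± 0.45 (SD, n = 6) to -2.78 ± 0.39 (SD, n = 8) in males. The changes of 1.58 and 2.44 had exact permutation p-values of 0.00216 and 0.000333, the smallest possible, and the groups overlapped in neither sex. Lhb minus Cga differed by -0.04 in females (exact permutation p = 0.864) and -0.02 in males (exact permutation p = 0.921), with group means between -4.12 and -3.99. A p that misses the threshold does not show that the pair responded alike, but the averaged change of this difference, -0.03, is small beside the 2.04 of Fshb minus Lhb and the 2.01 of Fshb minus Cga. Between the sexes, the change of Fshb minus Cga was 0.86 larger in males (exact permutation p = 0.0328, adjusted p = 0.181 over 6 tests) and that of Fshb minus Lhb 0.83 larger (exact permutation p = 0.076, adjusted p = 0.181). Neither passed after adjustment, and this permutation also assumes no sex difference in either treatment.

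**Figure D3:**
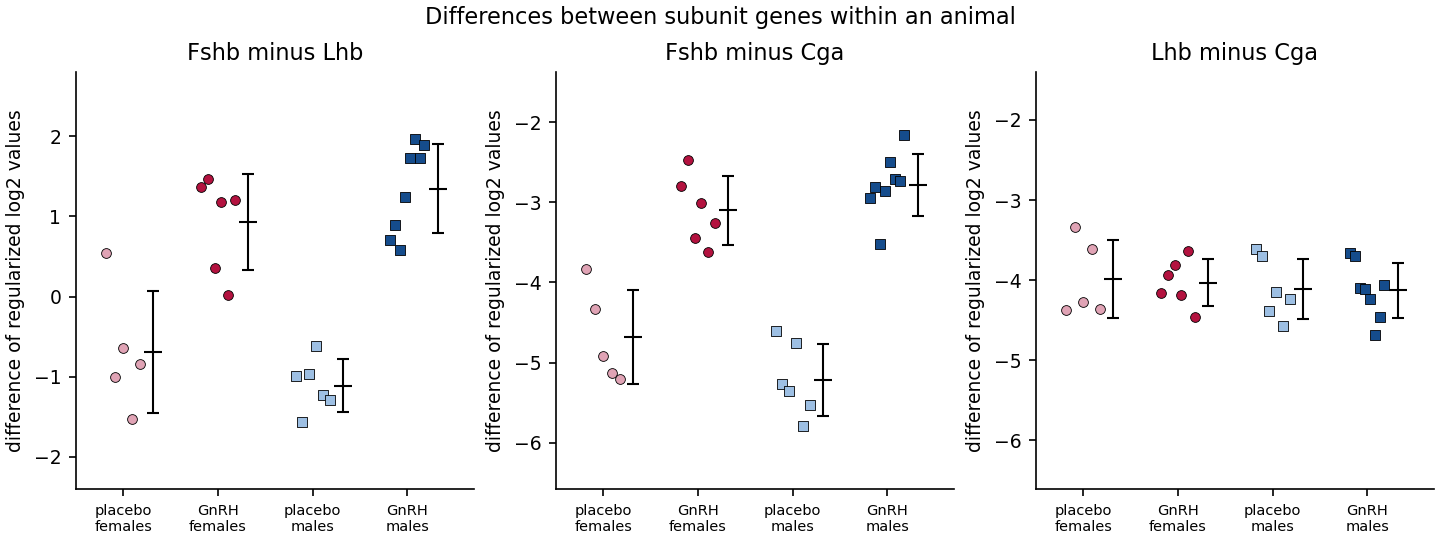
Differences of regularized log2 values between pairs of subunit genes within each of the 25 animals (vertical axes, same span), by group, with mean ± SD to the right. Both differences that contain Fshb shift upward with GnRH, by 1.62 and 1.58 in females and 2.46 and 2.44 in males, and Lhb minus Cga stays between -4.68 and -3.33 in all animals.

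To compare levels between genes, the log2 of the merged exon length in kilobases was subtracted from each value. On this scale per kilobase, Cga was the highest of the 3 in each animal, with group means from 14.52 to 15.01 and ranks of 22 to 26 among 19033 genes with a length. Lhb followed at 11.02 to 11.47, ranks 176 to 235. Fshb moved from 9.09 in placebo females (rank 1367) to 11.16 in GnRH females (rank 215), and from 8.69 in placebo males (rank 1951) to 11.46 in GnRH males (rank 173).

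The order of the beta subunits per kilobase depended on treatment. With placebo, Fshb was below Lhb in 5 of 5 females and 6 of 6 males, at 0.262 and 0.196 times the Lhb level. With GnRH, it was above Lhb in 2 of 6 females and 5 of 8 males, and the mean differences, -0.31 ± 0.59 (SD, n = 6) and 0.11 ± 0.56 (SD, n = 8), were smaller than their spread. Cga exceeded Fshb 43.1-fold in placebo and 14.4-fold in GnRH females, and 62.4-fold and 11.5-fold in males. The ratio of Cga to Lhb lay between 11.3 and 12.4 in the 4 groups. Shared and opposite-strand exonic bases, which were not removed, enter the levels of Lhb and Cga. The length of Lhb is that of its GENCODE model, which begins ahead of the RefSeq start. A shorter length would raise the level of Lhb per kilobase, so its order with Fshb under GnRH depends on the model used.

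On the scale per kilobase, Fshb also changed places with Tshb, the beta subunit of thyroid-stimulating hormone. The merged exons cover 4555 bases in Tshb and 1600 in Fshb, so this order depends on the lengths used. Per kilobase, Tshb was higher than Fshb in all 11 placebo animals, by 0.98 ± 0.69 (SD, n = 5) in females and 1.5 ± 0.75 (SD, n = 6) in males. It was lower in all 14 GnRH animals, by means of -0.91 ± 0.35 (SD, n = 6) and -1.34 ± 0.57 (SD, n = 8). Tshb itself had regularized log2 means of 12.26 and 12.44 in females (placebo, then GnRH) and 12.38 and 12.30 in males, with an averaged GnRH difference of 0.05 (limma, adjusted p = 0.939). Before the length was subtracted, these means stayed above those of Fshb with GnRH as well, 11.84 in females and 12.14 in males.

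**Figure D4:**
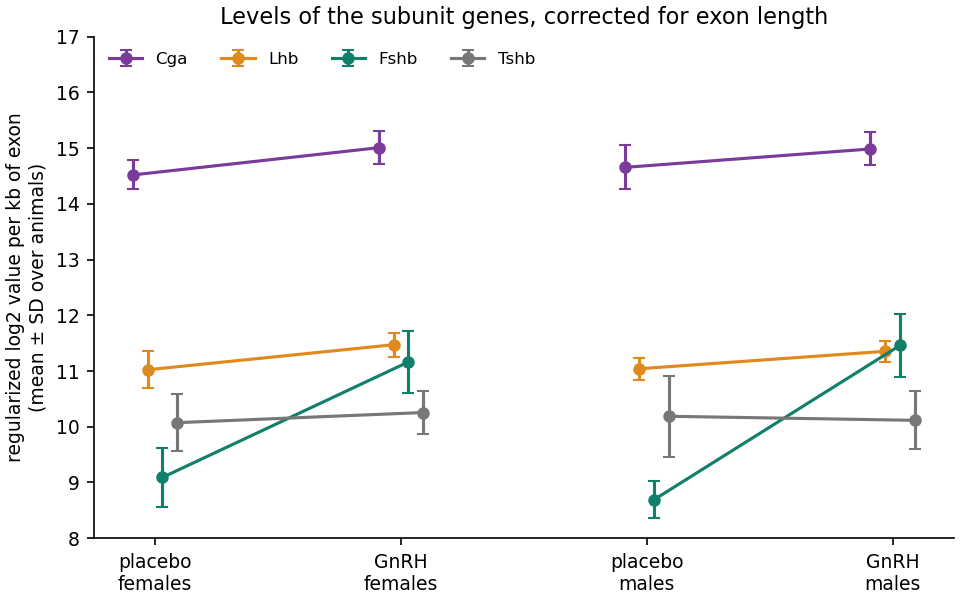
Regularized log2 values less the log2 of exon length in kilobases (vertical axis, mean ± SD over animals) for Cga, Lhb, Fshb and Tshb in the 4 groups (horizontal axis), with lines joining placebo to GnRH within a sex. On this scale, where the order of genes depends on the exon lengths used, Fshb moves from 9.09 to 11.16 in females and from 8.69 to 11.46 in males. It passes Tshb and comes near the level of Lhb, while Cga stays above 14.

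The 3 genes also varied between animals of the same group, each more than most genes of similar level. Within groups, Fshb had an SD of 0.511, above 99.7% of the 1740 other genes with a mean within 0.5 of its own. For Lhb the SD was 0.232, above 95.3% of 2111 genes, and for Cga it was 0.317, above 94.1% of a set of only 17. This variation was compared between genes as deviations from group means over all 25 animals, in 8 relations with permutation within groups and adjustment over the 8.

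Cga varied with Tshb. Pearson's r was 0.90 and Spearman's rho 0.84 (permutation p = 1e-05 for both, the smallest that 100000 draws can give, adjusted p = 8e-05). Without animals 11 and 16, the farthest from the median of Cga, r was 0.86. Placebo females, with 5 animals, were too few for a correlation within the group. In the other groups r was 0.79 in GnRH females (n = 6), 0.97 in placebo males (n = 6) and 0.84 in GnRH males (n = 8), with exact permutation p-values of 0.0528, 0.00278 and 0.00484 and adjusted p-values of 0.317, 0.058 and 0.058 over 24 tests within groups. The rho values were 0.77, 0.94 and 0.88 (exact permutation p = 0.103, 0.0167 and 0.00724). In GnRH females r was 0.22 without animals 6 and 11, so the relation there rests on those animals. It was 0.88 in placebo males without animals 12 and 16 and 0.70 in GnRH males without animals 23 and 19. The animals with the highest Tshb of their group, placebo female 5 (13.09), GnRH female 11 (13.01), placebo male 16 (13.61) and GnRH male 23 (13.34), also had the highest Cga of their group.

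A line on Tshb took up 80.9% of the variance of Cga within groups, with a slope of 0.52. In a fit with Tshb as a covariate, added after the data were seen, the SD of Cga within groups fell from 0.317 to 0.142, and the averaged GnRH difference of Cga was 0.38 (limma, SE 0.055, adjusted p = 0.00019), past the threshold. In that fit it was 0.39 in females (adjusted p = 0.0534) and 0.37 in males (adjusted p = 0.0122), and Lhb and Fshb kept averaged differences of 0.38 and 2.40. Cga minus Tshb within an animal moved from 2.19 ± 0.26 (SD, n = 5) to 2.50 ± 0.23 (SD, n = 6) in females and from 2.21 ± 0.36 (SD, n = 6) to 2.61 ± 0.31 (SD, n = 8) in males. The averaged change of that difference was 0.36 (exact permutation within each sex, p = 0.00462). Tshb shares its cell type with part of the Cga RNA, and its part in the spread of Cga was not tested beyond these values.

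Fshb and Cga had r = 0.48 and rho = 0.55 over the 25 animals (permutation p = 0.0197 and 0.0086, adjusted p = 0.0787 and 0.0344), and r = 0.51 without animals 25 and 1. Pearson's r passed in none of the 3 groups in which it was computed (placebo females were too few), at 0.65 in GnRH females, 0.24 in placebo males and 0.77 in GnRH males (exact permutation p = 0.178, 0.642 and 0.0325, adjusted p = 0.533, 0.77 and 0.26), with rho of 0.54, 0.26 and 0.69 (exact permutation p = 0.297, 0.658 and 0.0694). Without the 2 animals farthest from the median of Fshb, r was 0.52, 0.07 and 0.96. Over the 25 animals Fshb also had r = 0.355 with Tshb. With the part of Cga linear in Tshb removed, r of Fshb with Cga was 0.357. Both values were added after the data were seen and were not tested. In GnRH females the 3 animals with the highest Fshb (6, 7 and 11, 12.17 to 12.41, the rest 11.13 to 11.66) were the 3 with the highest Cga. In GnRH males the 4 animals with the highest Fshb (22, 23, 24 and 25, 12.53 to 12.86, the rest 11.30 to 11.82) were the 4 with the highest Cga (15.02 to 15.32, the rest 14.50 to 14.81). The number of animals taken in each group was chosen after the values were seen. In the same GnRH males Lhb ran from 10.64 to 10.97 in those 4 and from 10.50 to 11.11 in the rest, so it did not divide the animals in this way. The division of the GnRH males falls along the animal numbers, 18 to 21 against 22 to 25, while that of the GnRH females (6, 7 and 11) does not. The labels give no batch, and what the order of the numbers reflects was not tested.

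**Figure D5:**
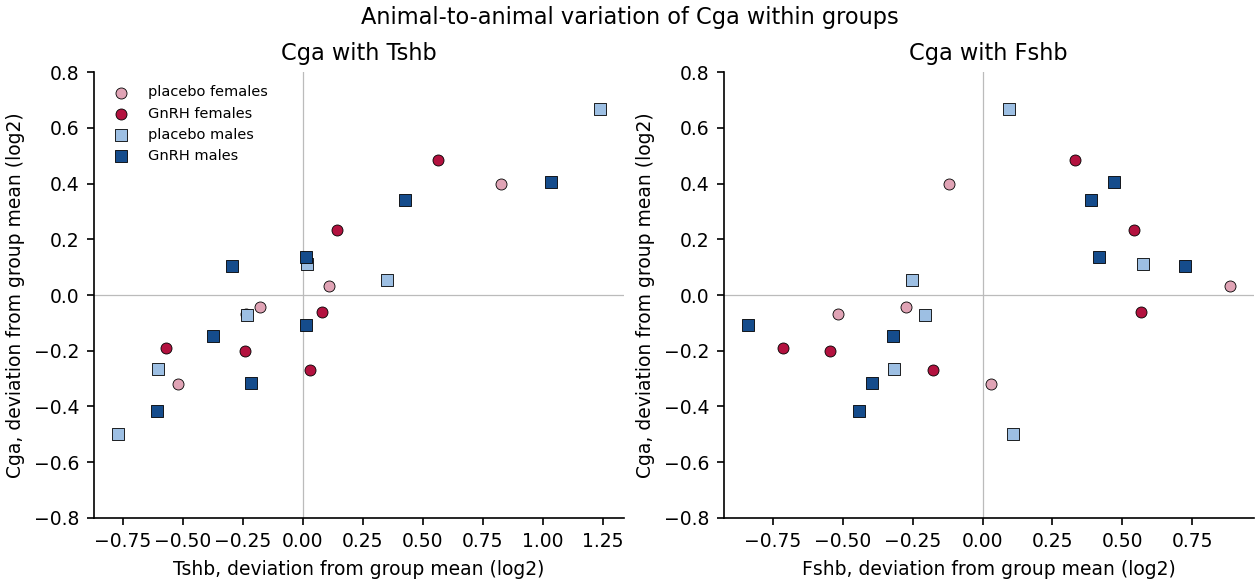
Deviation of Cga from its group mean (vertical axes, log2) against the deviation of Tshb (left) or Fshb (right) in each of 25 animals, with symbols by group. The points follow a rising line for Tshb (r = 0.90) and scatter more widely for Fshb (r = 0.48), where the GnRH males with the highest Fshb are also those with the highest Cga.

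The other relations did not pass. Fshb and Lhb, both beta subunits of gonadotropins, had r = -0.04 and rho = -0.01 (permutation p = 0.852 and 0.962), and r = 0.05 without animals 25 and 1. Lhb and Cga had r = 0.10 (rho 0.11, permutation p = 0.629 and 0.626). With Gnrhr, the GnRH receptor, r was -0.16 for Fshb, -0.02 for Lhb and -0.36 for Cga, and for Fshb with Atf3 it was 0.03. Their rho values were -0.19, -0.10, -0.32 and -0.10, with permutation p-values of r of 0.49, 0.922, 0.0843 and 0.909 and adjusted p-values of 0.225 or more. Without the 2 farthest animals r became -0.41, 0.23, -0.39 and 0.03, and for Lhb with Cga 0.04.

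The genes whose deviations were most like those of a member were listed by Pearson's r over the 25 animals, as a description. For Cga, Tshb came first (0.90), then Prss28, a serine protease (0.84), the RNA-binding gene Lin28a (0.79), Pycard, an inflammasome adaptor (0.79), and the spectrin gene Sptbn4 (0.78). For Lhb they were the kinase gene Mapk12 (0.85), the nuclear noncoding RNA Neat1 (0.83), the pituitary LIM homeodomain factor Lhx3 (0.83), Rgs11 (0.82) and Trim11 (0.82). For Fshb they were the peptide transporter Tap1 (0.85), the cyclin Ccnf (0.74), BC028528 (0.72), Lrrc7 (0.71) and Procr (0.69). Of these 15 genes, Mapk12 alone passed the averaged GnRH test (0.19, limma, adjusted p = 0.042), where 1.42% of all genes rose. This call was lost in 16 of the 25 fits without 1 animal, with adjusted p of up to 0.11. Cga ranked 304 among the genes most like Fshb, and Lhb 8331.

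Other genes of the hormone system were read from lists, beside a median difference of 0.00 over all genes in the averaged comparison. The lists were drawn up with earlier results of these data known, so their counts are descriptions. Of 6 glycoprotein hormone subunit genes 5 were tested, which were Fshb, Lhb, Cga, Tshb and Gpha2. Fshb and Lhb, described above, were the 2 that rose, where 1.42% of all genes rose. The list median of 0.38 is the value of Lhb itself and is no result beyond the members. Tshb differed by 0.05. Gpha2, the alpha subunit of thyrostimulin, differed by -0.04 (limma, adjusted p = 0.572) at a low mean of 3.99, where regularization draws values together. Of the 3 receptors for these hormones, Tshr alone was tested (-0.02, adjusted p = 0.901). Fshr and Lhcgr, which act in the gonads, and Gphb5 had means under 3 and were not tested.

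Transcription factors with known roles at the subunit genes moved in both directions. Of 39, 38 were tested, 5 rose and 3 fell in the averaged comparison, where 1.42% of all genes rose and 0.287% fell. The median was -0.03. Atf3, a factor of the ATF family named in the title of the series, rose by 2.08 (limma, SE 0.34, adjusted p = 0.000638) and Fosb, an AP-1 subunit, by 1.28 (adjusted p = 0.0125). Nab2 and Nab1, corepressors of EGR factors, rose by 0.69 and 0.25 (adjusted p = 0.000174 and 0.0267), and the LIM homeodomain factor Isl1 by 0.56 (adjusted p = 0.00121).

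Those that fell were Gata2 (-0.49, limma, adjusted p = 0.000638), Nr5a1, which encodes steroidogenic factor 1 (-0.38, adjusted p = 0.0222), and Foxl2, a factor of Fshb transcription (-0.30, adjusted p = 0.023). Leaving out 1 animal ended the call of Nr5a1 (animal 4, adjusted p = 0.0571), Foxl2 (animals 1 and 4, up to 0.0589) and Nab1 (animals 5 and 14, up to 0.0588), and all 3 also missed the threshold without the filter on low values (0.0543 to 0.0645). In males alone 3 rose (Nab2, Isl1 and Atf3) and Gata2 fell, where 0.449% of all genes rose and 0.047% fell. Without male 14 the male calls of Nab2 (adjusted p = 0.0549), Isl1 (0.0546), Atf3 (0.0546) and Gata2 (0.0703) were lost, as was that of Atf3 without male 12 (0.0504) and that of Gata2 without males 13 (0.0921), 17 (0.0576) or 18 (0.0589). Without the filter on low values the male calls were lost as well (Nab2 0.0524, Isl1 0.0525, Atf3 0.0691 and Gata2 0.0721). In females 0 of 38 passed by limma, with 12 at an unadjusted p under 0.05, where 9.57% of all genes had such a p. Egr1, the immediate early factor of Lhb transcription, had means of 11.65 and 11.75 in females (placebo, then GnRH) and 12.27 and 12.71 in males, and an averaged difference of 0.27 (adjusted p = 0.692). Each of these 4 means had an SD of 0.39 or more.

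Where 1.42% of all genes rose and 0.287% fell, Gnrhr alone passed among 17 tested receptors, ligands and other inputs to gonadotropes. It rose by 0.66 (limma, SE 0.11, adjusted p = 0.00109), from 9.23 ± 0.34 (SD, n = 5) to 9.81 ± 0.38 (SD, n = 6) in females and from 9.06 ± 0.23 (SD, n = 6) to 9.79 ± 0.29 (SD, n = 8) in males. The activin receptors Acvr2a and Acvr1b differed by -0.14 and -0.09 (adjusted p = 0.279 and 0.391), and Pgr, the progesterone receptor, by -0.17 (adjusted p = 0.134). The median of the list was 0.03. Fst, the activin-binding follistatin, and Esr2 were not tested. Gnrh1, the gene that carries the hpg deletion, lay between 3.69 and 3.99 in all animals. Every group carries the deletion, so this gene gives no check of the group labels.

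None of 20 tested genes for the folding and glycosylation of these hormones passed (0 by limma, with 1 at an unadjusted p under 0.05, median -0.03), and in this comparison 12.0% of all genes had such a p. The smallest p-values belonged to the chaperone Canx (-0.18, unadjusted p = 0.0449, adjusted p = 0.401) and the glycosyltransferase genes Mgat1 (-0.08, adjusted p = 0.451), Mgat4b (-0.06, adjusted p = 0.606) and St3gal3 (-0.05, adjusted p = 0.651). Of 14 genes for storage and release of hormone 2 rose, the granule proteins Chga by 0.44 (limma, adjusted p = 1.37e-05) and Scg2 by 0.45 (adjusted p = 0.0246). The list median was 0.00, and 1.42% of all genes rose. Scg2 gave 0.33 after quantile normalization (adjusted p = 0.239) and missed the threshold without the filter on low values (adjusted p = 0.0743). Pcsk1 and Scg5 differed by 0.21 and 0.07 (adjusted p = 0.315 and 0.375). By sex, Chga differed by 0.40 in females and 0.49 in males. Scg2 differed by 0.22 in females (limma, adjusted p = 0.669) and 0.67 in males (adjusted p = 0.0209). The sex difference of the Scg2 effect did not pass (adjusted p = 0.999). Chga and Scg2 are expressed in other endocrine cells of the pituitary as well.

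Markers of gonadotropes and of the other cell types were set beside the members. Of 9 gonadotrope markers other than the subunits, 3 rose, the secreted proteins Serpine2 (0.48, limma, adjusted p = 6.6e-05) and Spp1 (0.95, adjusted p = 0.0107) and Gnrhr, and 2 fell, Nr5a1 and Foxl2. Of all genes, 1.42% rose and 0.287% fell. This list was drawn up with earlier results of these data known, so its counts beside those shares are no test of gonadotropes. The other markers, Pcsk1, Tgfbr3l, Gal and Otx1, differed by 0.21, 0.08, 0.00 and -0.06 and did not pass. Gal had a mean of 3.69, a low level at which regularization draws values together. Pcsk1 is also on the list for storage and release of hormone. Serpine2, Spp1 and the marker Plvap are named after their values were seen. The mean log2 level of the 9 markers ran from 7.97 to 8.10 in placebo females, 8.08 to 8.32 in GnRH females, 7.95 to 8.09 in placebo males and 8.15 to 8.41 in GnRH males. These ranges met in females and not in males. Among single genes, GnRH males lay above every placebo male for 0.345% of those tested. In males Spp1, Gnrhr and Serpine2 differed by 0.90, 0.73 and 0.58, and Nr5a1 and Foxl2 by -0.40 and -0.21. Pcsk1, Tgfbr3l, Gal and Otx1 differed there by 0.30, 0.10, 0.02 and -0.03. The markers moved in both directions, with a list median of 0.08 in the averaged comparison, so the mean level does not stand for each marker. The part of gonadotrope number in the values of the members was not tested. Of 6 thyrotrope markers, Gata2 fell, where 0.287% of all genes fell, and 5 did not pass. Gata2 is the gene already counted among the transcription factors above, so its fall cannot be assigned to thyrotropes alone. Lists of cell types also share genes, such as Pou1f1 on the thyrotrope, somatotrope and lactotrope lists. The mean level of the thyrotrope list, Tshb included, was 9.89 and 9.82 in females (placebo, then GnRH) and 9.87 and 9.78 in males.

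Somatotrope, lactotrope, corticotrope and melanotrope, stem cell and posterior lobe markers came to 4, 4, 7, 6 and 5 genes. None passed in the averaged comparison by limma, where 1.42% of all genes rose and 0.287% fell. At an unadjusted p under 0.05 were 1, 1, 1, 0 and 0 of them, and 12.0% of all genes had such a p. The listed genes with such a p were Ghrhr, the receptor for growth hormone-releasing hormone (0.28, adjusted p = 0.0567), the prolactin gene Prl (0.28, adjusted p = 0.391) and the corticotrope factor Tbx19 (0.14, adjusted p = 0.233). They are named after their values were seen. Of 11 endothelial, macrophage and blood markers, Plvap of endothelium rose (0.18, limma, adjusted p = 0.0238), against 1.42% of all genes. It missed the threshold without animal 1 (adjusted p = 0.0602) or 6 (0.0531) and after quantile normalization (0.0514). Each listed marker had a mean of at least 3 and was tested, and group means were 13.01 to 13.16 for the somatotrope and 12.94 to 12.97 for the lactotrope list, the main hormone cells of the anterior pituitary.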

How the data were processed

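RNA of 25 pituitaries was sequenced after poly(A) selection and depletion of ribosomal and globin RNA, per the labels' protocols, which also state RNA integrity numbers above 8.2 with a median of 9.1. The authors deposited 1 table of regularized log2 values for 47069 genes. The submitters' processing notes name bcl2fastq, STAR, featureCounts and mm10. No source used here gives versions, annotation or strand setting, and counts were not analysed here. Regularization draws values of low genes together, so folds of such genes are understated.

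The genes whose mean reached 3 were fitted with limma 3.58.1 (R 4.3.3; variance trend, 4 group means, Benjamini-Hochberg adjustment over 19141 genes). Exact two-sided permutation tests, correlations and levels were computed with Python 3.11.15, numpy 2.4.6, scipy 1.17.1 and pandas 2.3.3, and figures with matplotlib 3.10.9. The scripts were tested on simulated data. The members and lists were chosen with earlier results of these data known. In the 6 lists other than cell type markers, genes were named if they passed in a comparison or were among the 4 smallest p-values of their list, and the 5 most like each member were added. Exon lengths came from GENCODE on mm10 and promoters from RefSeq on GRCm38.p6. Alternatives were other normalizations, filters, variance models, medians and leaving out each animal. A Tshb covariate and permutation within each sex were added after the data were seen.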

Additional observations from a re-analysis of the deposited data

Results flagged for a closer look

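Lhb in GnRH female 9, at 10.4865, was flagged because it lies far from the other GnRH females, whose values ran up to 11.11. Its gap to the nearest of them was 0.721 of the range of the group. Of 40 groups tested in this way 1 was flagged, and chance flags about 1 in 20 groups. The library also had the lowest weight of the 25 when limma estimated library weights (0.344), and without it the averaged Lhb difference was 0.42 (limma, adjusted p = 0.00302).

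The GnRH effect on Fshb minus Cga was 0.8551 larger in males than in females. It was flagged as a difference between groups by its exact permutation test (p = 0.0328), which did not pass after adjustment over 6 such tests (adjusted p = 0.181). That test assumes no sex difference in either treatment. The Fshb minus Cga value of the GnRH males ranged from -3.51 to -2.16 and overlapped with that of the GnRH females, -3.63 to -2.47.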

How the results depend on the processing

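Fshb kept its direction and its call by limma in every alternative run, with averaged differences of 2.35 to 2.53 without 1 animal, and Lhb kept its averaged call in 8 other settings and all 25 fits without 1 animal. Averaged Cga passed across all genes with array weights (0.46) and with the Tshb covariate (0.38; males 0.37). The exact permutation within each sex (0.41) passed over its own 7 tests, which are far fewer than the genes limma adjusts over. The Cga difference ran from 0.36 to 0.48 without 1 animal. Counts of genes that passed were 7 in females and 42 in males with no filter, and 62 in females, 239 in males and 942 for the average with array weights. Without 1 animal they ran from 4 (animal 6) to 67 (animal 10) in females, 46 (animal 14) to 153 (animal 19) in males and 8 to 17 (animal 10) between the sexes with GnRH. Counts also moved by over 1.5 times in females without animals 3 (7), 5 (5), 7 (12) or 11 (6) and in males without animals 12 (58), 13 (60) or 25 (63). The cause was not tested.

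In permutation tests, differences in medians gave 2.27 and 2.86 for Fshb in females and males and 0.28 for Lhb in males, where quantile normalization gave 0.30. These no longer passed after adjustment over the 12 single-gene tests, nor did Lhb in males without animal 12, 14, 17, 18, 19, 20, 22, 24 or 25. Ranges without 1 animal were 0.36 to 0.53 for Lhb and 0.39 to 0.59 for Cga in females, 0.24 to 0.36 and 0.23 to 0.46 in males, and 1.41 to 1.93 for Fshb minus Lhb in females. Small differences changed sign. Lhb minus Cga was 0.040 in females and 0.097 in males after quantile normalization. By medians it was 0.23 and 0.084, with 0.091 between the sexes with placebo and -0.15 for the sex difference of the effect. Cga between the sexes with GnRH was 0.10 by medians. Without 1 animal, Lhb minus Cga ran from -0.14 to 0.12 in females, -0.11 to 0.080 in males, -0.21 to 0.048 between the sexes with placebo and -0.14 to 0.12 for the sex difference. Cga between the sexes with GnRH ran from -0.082 to 0.073, and Lhb with placebo from -0.071 to 0.10. Correlations ran from 0.44 to 0.53 for Fshb with Cga, -0.11 to 0.14 with Lhb (0.013 after quantile normalization) and -0.13 to 0.13 with Atf3, from -0.0057 to 0.21 for Lhb with Cga and from -0.18 to 0.13 for Lhb with Gnrhr. No paired analysis was possible because the animal numbers run from 1 to 25 and the groups share none. Depth is unknown, so no limit from it can be given.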
